A study of Mus musculus with 6 samples.

Results

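The collagen chain genes of mouse liver are described here in animals kept on a normal diet and in animals kept on CDAHFD, a high-fat diet without choline and with defined amino acids that is used in rodents to bring about steatohepatitis with fibrosis. A gene was taken as a member when its symbol had the form Col, a number, a, a number, and when its reads summed to at least 10 over the 6 libraries. Of 56847 gene rows, 44 had such a symbol and 35 reached the minimum, namely 9 fibrillar chains, 6 basement membrane chains, 5 beaded filament chains, 5 FACIT chains (fibril-associated collagens with interrupted triple helices) and 10 chains of other kinds. The lowest members by summed reads were Col17a1 with 12, Col28a1 with 15 and Col7a1 with 21. Below the minimum lay Col22a1 with 7 reads, Col9a2 with 5, Col10a1 and Col6a4 with 4 each and Col19a1 with 1, and no read was assigned to Col2a1, Col9a1, Col11a1 or Col26a1.

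Collagens are trimers of chains that wind around each other as a triple helix, and the helix needs a glycine at every turn and is stabilised by hydroxylated prolines. Fibrillar collagens assemble into the banded fibrils of scars, type IV chains form the sheet of basement membranes, type VI chains form beaded filaments around cells, and FACIT chains sit on the surface of fibrils. In liver fibrosis, stellate cells and portal fibroblasts that turn into myofibroblasts are known as the main makers of fibrillar collagen, while type XVIII collagen is known as a product of hepatocytes. The series title asks what ALDH18A1, an enzyme of proline synthesis, does in metabolic dysfunction-associated steatohepatitis, and collagens are among the proteins richest in proline.

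Polyadenylated RNA of whole liver was sequenced in 3 libraries per diet, with 21986215 to 25628531 reads counted per library. The sources used here give only tissue and diet, and no strain, genotype, sex, age or time on diet. Nothing in the labels ties a library to an animal of its own, and the p-values below therefore cover the spread between libraries, which may be technical. Levels are given as the deposited TPM (transcripts per 1000000, scaled by gene length, so that genes can be set side by side) and changes as log2 ratios of CDAHFD to normal diet, called log2 fold changes, with the standard error that edgeR gives from read counts (n = 3 libraries per diet). Hepatocyte markers such as Alb and Apoa1, 10 in all, summed to 135867 to 156591 CPM (counts per 1000000) on normal diet and to 95476 to 109869 CPM on CDAHFD. Of these, 8 of 10 were lower, against 23.5% of all genes tested, while Apoa1 and Asgr1 did not pass an adjusted p of 0.05. The size of this fall depends on the scaling. In TPM, Alb, Apoa1, Apob, Cyp2e1 and Asgr1 overlapped between diets, and the other markers were lower in every CDAHFD library than in any normal diet library.

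The repeat that defines these chains can be read in their coding sequences, shown here for the fibrillar chain with the largest change, for the most abundant basement membrane chain and for the most abundant chain of all. Each stretch is the run of 25 codons with the most proline codons in its chain, the first where several tied. It was read from the GENCODE M21 principal transcript (GRCm38) and is written 5′ to 3′ on the coding strand, with the codons for proline in capitals. The stretches span codons 118 to 142 of Col1a1, 190 to 214 of Col4a1 and 714 to 738 of Col18a1.
Col1a1: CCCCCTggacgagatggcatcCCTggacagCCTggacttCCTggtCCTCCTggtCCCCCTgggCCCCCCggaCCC
Col4a1: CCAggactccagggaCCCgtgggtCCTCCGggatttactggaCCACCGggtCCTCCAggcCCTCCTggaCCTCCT
Col18a1: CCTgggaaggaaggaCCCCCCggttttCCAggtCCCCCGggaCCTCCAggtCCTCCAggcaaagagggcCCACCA
In each of them 12 of the 25 codons encode proline and 8 encode glycine. The stretches were picked for their proline, so these counts are not typical of the chains. Over the whole coding sequence proline took 19.0% of codons in Col1a1, 19.3% in Col4a1 and 16.2% in Col18a1. Over whole coding sequences, proline took a median of 16.2% of codons in the 35 collagen chains (4.5% in Col6a6 to 23.5% in Col4a5), against a median of 5.23% over all 21468 genes with a coding sequence. The classes differ in how long the glycine repeat runs unbroken. The fibrillar chains hold 216 (Col24a1) to 344 (Col3a1) consecutive Gly-X-Y triplets, while the longest run is 40 triplets in Col4a1, 66 in Col4a2, 87 in both Col6a1 and Col6a2, and 30 in Col18a1.

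Most of the collagen chains that could be tested rose on CDAHFD. Of the 35 members, 27 passed the filter on low counts, and 18 of these 27 rose, 1 fell and 8 did not pass the threshold (edgeR quasi-likelihood test, Benjamini-Hochberg adjusted over the 14215 genes tested, threshold 0.05). Over all genes tested, 28.5% rose and 23.5% fell. At least 2-fold higher were 17 collagen chains, against 18.4% of all genes tested, and in 18 every CDAHFD library lay above every normal diet library, which held for 32.2% of all genes tested. The median log2 fold change of the 27 chains was 1.78, with a range of -1.11 to 5.05, while the median of all genes tested was 0.01. The filter can keep a gene through 1 diet alone. Col6a5 (9, 4 and 18 reads on normal diet) and Col8a1 (8, 12 and 11) rose and passed it only with their CDAHFD libraries. For such chains a rise is partly set by the filter, so these counts describe the tested chains and not all 35. In whole liver RNA, more or fewer cells of a type and more or less RNA per cell cannot be told apart.

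**Figure D1:**
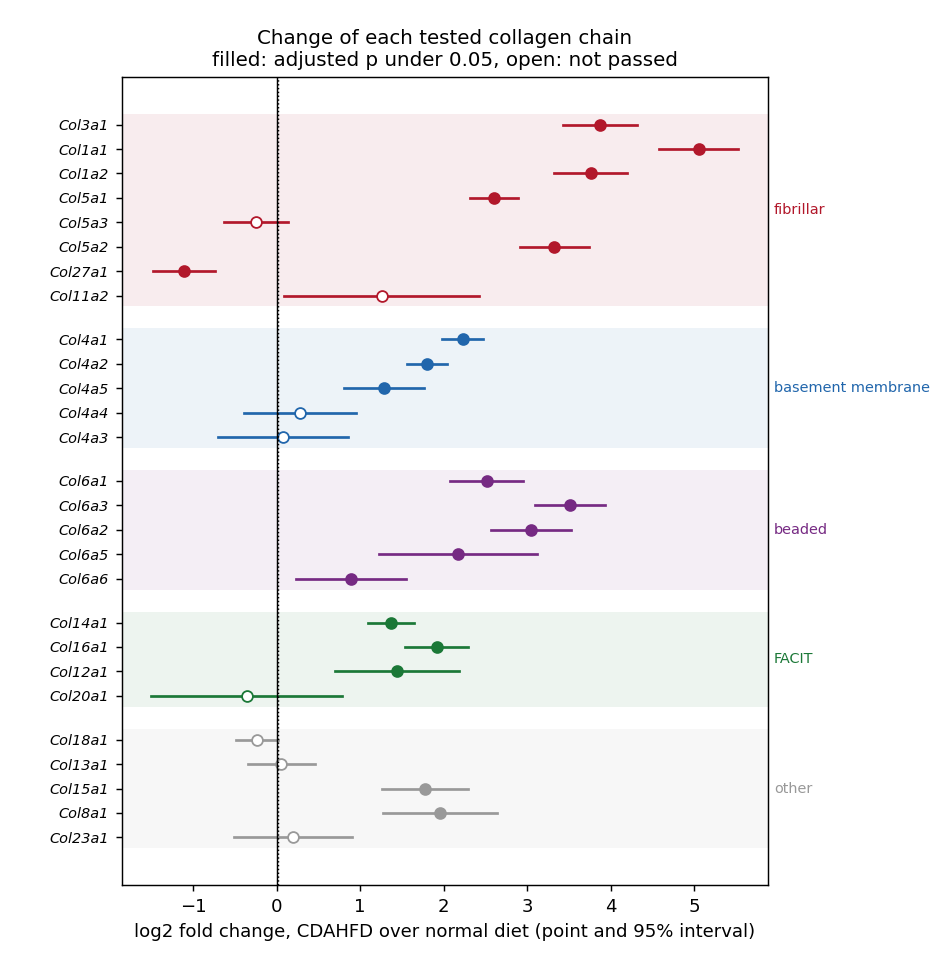
Log2 fold change (CDAHFD over normal diet, x axis) of each of the 27 tested collagen chains, ordered within each class by mean level, with 95% intervals worked out from the edgeR F statistic. Filled points passed an adjusted p of 0.05 and open points did not, the solid line marks 0 and the dotted line the median of all genes (0.01). All 5 beaded chains lie to the right of 0, and Col27a1 is the 1 filled point to the left.

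Among the fibrillar chains, 5 of the 8 tested rose, 1 fell and 2 did not pass, with a median log2 fold change of 2.96. Col1a1 encodes the chain that is present in 2 copies in the type I trimer, the main fibril of scars. Its level was 1.87, 1.74 and 2.66 TPM in the normal diet libraries and 74.7, 80.8 and 114 TPM in the CDAHFD libraries. The diets did not overlap, and its log2 fold change of 5.05 ± 0.22 (SE, edgeR adjusted p = 4.51e-08), a 33.2-fold rise, was the largest of all collagen chains tested. Col3a1, the type III chain that forms fibrils mixed with type I, stood at 4.27, 5.59 and 6.36 TPM on normal diet and at 79.7, 96.9 and 130 TPM on CDAHFD. It was the most abundant fibrillar chain of every CDAHFD library, and it rose by a log2 fold change of 3.87 ± 0.20 (edgeR adjusted p = 1.17e-07). Col1a2, the partner of Col1a1 in type I, was at 2.00, 2.17 and 2.95 TPM on normal diet and at 33.7, 38.6 and 52.7 TPM on CDAHFD. The groups were again apart, with a log2 fold change of 3.76 ± 0.20.

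The type V chains, which join type I in mixed fibrils and limit their width, did not move as a block. Col5a1 was at 1.40, 1.73 and 1.75 TPM on normal diet against 12.1, 12.1 and 14 TPM on CDAHFD. Col5a2 was at 0.795, 0.836 and 0.713 TPM against 8.12, 9.27 and 13 TPM. Neither gene overlapped between diets, and their log2 fold changes were 2.60 ± 0.13 and 3.33 ± 0.19. Col5a3 was the most abundant fibrillar chain by mean level on normal diet, at 7.71, 6.30 and 4.56 TPM, and it stood at 6.57, 6.95 and 6.62 TPM on CDAHFD. These values overlap, and its log2 fold change of -0.25 ± 0.17 did not pass (edgeR adjusted p = 0.252). Without normal diet replicate 3 it passed as lower, at -0.43 (edgeR adjusted p = 0.0341), while scaling to total counts gave 0.08. That scaling moved the median of all genes to 0.34, so relative to the median gene Col5a3 was below it under both.

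Col27a1, a fibrillar chain with a shorter and interrupted helix known mainly from cartilage, was the 1 collagen chain that fell. It was at 2.86, 3.67 and 3.29 TPM on normal diet and at 2.15, 2.19 and 1.49 TPM on CDAHFD, so every CDAHFD library lay below every normal diet library. Its log2 fold change was -1.11 ± 0.17 (edgeR adjusted p = 0.000257), and it passed as lower under every alternative run, with -1.13 to -0.54 over the other scalings, tools and units. Col11a2, a chain of the cartilage fibril collagen type XI, had 13, 5 and 3 reads on normal diet and 31, 22 and 12 on CDAHFD. With such counts its log2 fold change of 1.26 ± 0.53 did not pass (edgeR adjusted p = 0.0673), and the libraries of the diets overlap. Without normal diet replicate 1 it was 2.04 and passed (edgeR adjusted p = 0.0204). Col24a1, the remaining fibrillar member, had 5 to 10 reads in every library and was not tested.

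**Figure D2:**
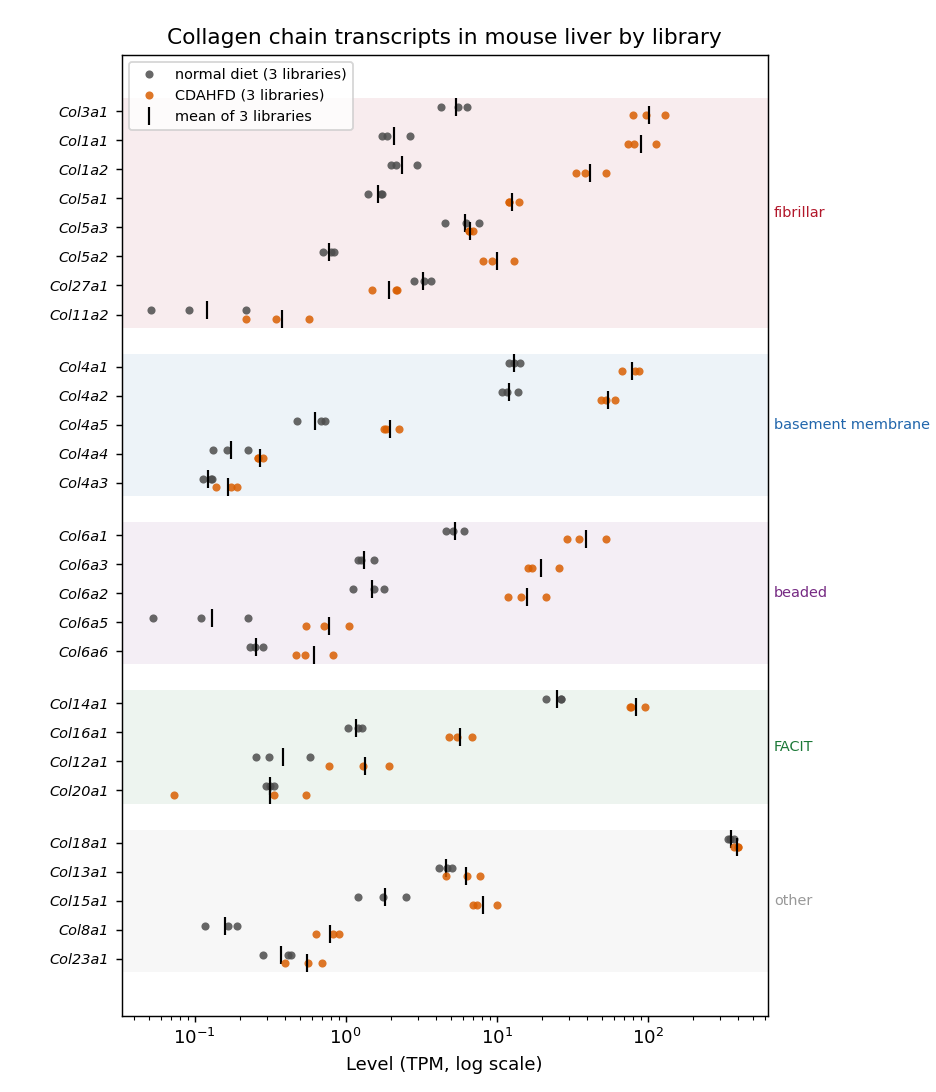
Level of the 27 tested collagen chains in each library (TPM, log scale, x axis), by class, with grey points for the 3 normal diet libraries, orange points for the 3 CDAHFD libraries and a bar at each mean. Col1a1, Col3a1 and Col1a2 move furthest to the right, while Col18a1, far above the other chains, has means of 355 and 388 TPM.

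Of the basement membrane chains, 3 of the 5 tested rose and 2 did not pass, with a median log2 fold change of 1.28. Col4a1 and Col4a2 make up the type IV trimer found in almost all basement membranes. Col4a1 was at 12.1, 14.3 and 13 TPM on normal diet and at 82.1, 68.1 and 87.4 TPM on CDAHFD, a log2 fold change of 2.23 ± 0.11 (edgeR adjusted p = 1.06e-07). Col4a2 was at 10.9, 13.9 and 11.7 TPM on normal diet and at 53.2, 49.3 and 61.0 TPM on CDAHFD, a log2 fold change of 1.80 ± 0.11. Both were well separated between diets. Col4a5, a chain of the tissue-restricted type IV networks, was lower, at 0.688, 0.728 and 0.474 TPM against 1.86, 1.80 and 2.27 TPM. It too did not overlap, and it rose by a log2 fold change of 1.28 ± 0.22. Col4a3 and Col4a4, its partners in the basement membrane of the kidney filter, had 9 to 26 reads in each library. Their log2 fold changes of 0.07 (95% interval -0.71 to 0.85) and 0.28 (-0.39 to 0.95) did not pass, and those intervals still allow a change of nearly 2-fold. Col4a6 had 3, 1 and 8 reads on normal diet and 9, 17 and 20 on CDAHFD and was not tested.

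All 5 beaded filament chains rose, with a median log2 fold change of 2.51. Of these, Col6a5 passed the filter only with its CDAHFD libraries. The type VI trimer joins Col6a1, Col6a2 and one more chain, most often Col6a3. Col6a1 was at 4.59, 5.18 and 6.06 TPM on normal diet and at 35, 29.2 and 53.1 TPM on CDAHFD. Col6a2 was at 1.12, 1.55 and 1.79 TPM against 14.5, 11.9 and 21.3 TPM. Col6a3 was at 1.26, 1.21 and 1.54 TPM against 17.2, 16.3 and 25.9 TPM. None of the 3 overlapped between diets, CDAHFD replicate 3 was the highest library for each, and their log2 fold changes were 2.51 ± 0.20, 3.05 ± 0.22 and 3.51 ± 0.19. Col6a5 and Col6a6, which can take the place of Col6a3, were rare, with means of 0.776 ± 0.260 and 0.615 ± 0.190 TPM (SD) on CDAHFD. Col6a5 rose by a log2 fold change of 2.17 ± 0.43 (edgeR adjusted p = 0.00148), which became 2.83 without normal diet replicate 3, and was higher in 3 of 3 CDAHFD libraries. Col6a6 rose by 0.89 ± 0.30 (edgeR adjusted p = 0.0273), a call that was lost without either of normal diet replicates 1 (0.0655) and 2 (0.0851), without either of CDAHFD replicates 2 (0.0508) and 3 (0.143), and with DESeq2 (0.0506).

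In the FACIT class, 3 of the 4 tested chains rose and 1 did not pass, with a median log2 fold change of 1.41. Col14a1, which coats type I fibrils, was the most abundant collagen chain after Col18a1 in every normal diet library. It was at 21.2, 26.8 and 26.8 TPM on normal diet and at 76.0, 77.2 and 96.4 TPM on CDAHFD. The diets did not overlap, and the log2 fold change was 1.37 ± 0.13 (edgeR adjusted p = 5.36e-06). Col16a1, a FACIT chain of fibrils and cell contacts, was at 1.22, 1.28 and 1.03 TPM against 5.49, 4.85 and 6.88 TPM, with the largest FACIT change at 1.92 ± 0.17. Col12a1, which like Col14a1 binds fibril surfaces, was at 0.311, 0.584 and 0.256 TPM against 1.30, 0.773 and 1.95 TPM. Its libraries were the most scattered of these, yet did not overlap, and its log2 fold change was 1.44 ± 0.34 (edgeR adjusted p = 0.00416). Col20a1 had 15, 13 and 13 reads on normal diet against 22, 16 and 3 on CDAHFD, where replicate 3 lay far below all other libraries. Its log2 fold change of -0.36 ± 0.52 did not pass (edgeR adjusted p = 0.592) and was 0.11 when libraries were scaled by hepatocyte markers, still below the median of all genes under that scaling (0.50). Col9a3, a cartilage chain, had 24 reads in all and was not tested.

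Of the 5 tested chains of the other class, 2 rose (Col15a1 and Col8a1) and 3 did not pass, with a median log2 fold change of 0.20. Col18a1, the basement membrane proteoglycan chain whose end is cut off as endostatin, was the most abundant collagen chain in all 6 libraries. Its level was 372, 341 and 350 TPM on normal diet and 371, 396 and 398 TPM on CDAHFD, so the diets overlap in TPM. In TMM-scaled counts they did not overlap, with 937 to 1110 CPM on normal diet and 829 to 919 CPM on CDAHFD. Its log2 fold change from read counts was -0.24 ± 0.11 (95% interval -0.49 to 0.01, edgeR adjusted p = 0.101), a difference that did not pass and that excludes a rise or fall of 2-fold. It passed as lower with DESeq2 (-0.26, adjusted p = 0.0499) and, in edgeR, without normal diet replicate 2 (-0.31, adjusted p = 0.0453), but had the opposite sign after scaling to total counts (0.09), after scaling by hepatocyte markers (0.25) and in TPM (0.13). Those scalings also move the median log2 fold change of all genes, to 0.34, 0.50 and 0.29, so relative to the median gene Col18a1 was lower under each of them.

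Col15a1, the close relative of Col18a1, was at 1.2, 1.78 and 2.53 TPM on normal diet and at 7.0, 7.4 and 10 TPM on CDAHFD. Without overlap between diets, it rose by a log2 fold change of 1.78 ± 0.23 (edgeR adjusted p = 8.74e-05). Col8a1, a short network-forming chain made by vascular cells, rose by 1.96 ± 0.31 (edgeR adjusted p = 0.000339) from 0.118, 0.192 and 0.166 TPM to 0.634, 0.910 and 0.828 TPM. It passed the filter only with its CDAHFD libraries. Its partner Col8a2 had 3 reads in each normal diet library and 12, 7 and 24 on CDAHFD, too few to test. Col13a1, a collagen that spans the cell membrane, was at 5.08, 4.71 and 4.16 TPM against 7.78, 4.66 and 6.37 TPM. Those values overlap, and its log2 fold change of 0.06 ± 0.18 did not pass (edgeR adjusted p = 0.815). After scaling by hepatocyte markers it was 0.55 and passed, but that scaling moved the median of all genes to 0.50, so relative to the median gene it moved little. Col23a1, also a membrane-spanning chain, had a log2 fold change of 0.20 ± 0.32 (edgeR adjusted p = 0.641) with overlapping libraries.

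Of the 8 members that were not tested, none had more than 24 reads in a library. Besides Col24a1, Col4a6, Col9a3 and Col8a2, these were 4 chains of the other class. Col25a1, a membrane-spanning chain known mainly from neurons and muscle, had 18, 11 and 6 reads on normal diet and 1, 8 and 2 on CDAHFD, and passed as lower when no filter was used. Col17a1 and Col7a1, which anchor the epidermis, had 0 to 4 and 0 to 10 reads in a library. Col28a1, a chain known from the sheaths of peripheral nerves, had 0, 0 and 1 reads on normal diet and 3, 6 and 5 on CDAHFD. No fold is given for these chains, which missed the filter.

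Summed over the 35 chains, collagen transcripts took 446 ± 8.83 TPM (SD, n = 3) on normal diet and 974 ± 117 TPM on CDAHFD, a 2.19-fold difference with no overlap. Because the members were chosen as a set, these sums are described without a test. The rise of the sum is held down by Col18a1, which made up 79.6% ± 1.97 of all collagen TPM on normal diet and 40.2% ± 3.77 on CDAHFD while its own level moved little. Without Col18a1, the sum was 90.9 ± 7.09 TPM on normal diet and 586 ± 108 TPM on CDAHFD, a 6.44-fold difference. The fibrillar class went from 22.0 ± 0.63 to 266 ± 59.9 TPM, or from 4.94% to 27.1% of collagen TPM. The basement membrane class went from 26.3 ± 2.66 to 136 ± 15.8 TPM (5.90% to 14%) and the beaded class from 8.48 ± 1.30 to 76.2 ± 23.0 TPM (1.91% to 7.72%). FACIT chains went from 26.9 ± 3.23 to 90.8 ± 12.8 TPM (6.04% to 9.31%). On normal diet the fibrillar sum was thus below the basement membrane and FACIT sums, and on CDAHFD it was above both in every library.

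**Figure D3:**
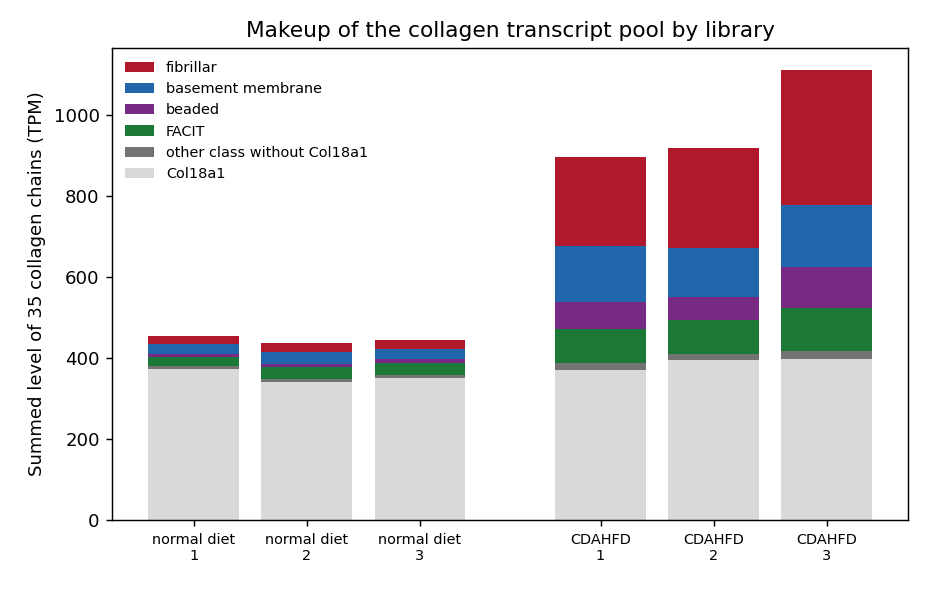
Summed TPM (y axis) of the 35 collagen chains in each library, stacked by class with Col18a1 shown apart. The Col18a1 segment lies between 341 and 398 TPM in all 6 libraries, while the fibrillar segment grows from a mean of 22.0 to 266 TPM.

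After Col18a1, the chains were also ranked differently on the 2 diets. On normal diet Col14a1 (24.9 ± 3.20 TPM) came next, followed by Col4a1 (13.1 ± 1.07) and Col4a2 (12.2 ± 1.54), with Col4a1 above Col4a2 in 3 of 3 libraries by less than the spread between libraries. Behind them Col5a3 (6.19 ± 1.58), Col3a1 (5.41 ± 1.05) and Col6a1 (5.28 ± 0.74) cannot be put in order. On CDAHFD the next chains were Col3a1 (102 ± 25.8 TPM), Col1a1 (90.0 ± 21.4), Col14a1 (83.2 ± 11.5) and Col4a1 (79.2 ± 9.97), whose ranges over libraries overlap, although Col3a1 was above Col1a1 in 3 of 3 libraries. Col1a1 itself was only the eleventh chain by mean level on normal diet, at 2.09 ± 0.50 TPM. The share of all proline codons in the transcript pool that lay in collagen transcripts, from TPM and coding sequences, was 0.485% ± 0.022 on normal diet and 1.02% ± 0.112 on CDAHFD, a 2.11-fold difference without overlap. Their share of all codons was 0.161% ± 0.007 and 0.352% ± 0.040. Fibrillar chains held 5.65% of the collagen proline codons on normal diet and 30.5% on CDAHFD. These are contents of the RNA pool and say nothing of how much was translated.

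The transcript ratio between chains was compared in 7 pairs, most of them partners in 1 collagen type, and in 6 of these the libraries of the diets did not overlap. The ratio of Col1a1 to Col1a2 (from TPM + 0.01) was 0.934, 0.802 and 0.901 on normal diet against 2.22, 2.09 and 2.17 on CDAHFD. The type I trimer itself holds 2 Col1a1 chains and 1 Col1a2 chain, a protein makeup that an RNA ratio does not measure. The value of the ratio rests on the gene lengths behind TPM. In CPM, which is not scaled by length, Col1a1 and Col1a2 stood at 156 and 133, 175 and 159, and 235 and 205 in the CDAHFD libraries. Col4a1 to Col4a2 went from 1.11, 1.03 and 1.11 to 1.54, 1.38 and 1.43. Col6a3 to Col6a1 went from 0.275, 0.234 and 0.255 to 0.490, 0.557 and 0.488. In each of these 3 pairs the chain named first gained on its partner. The ratios of Col5a1 to Col5a2 (mean 2.08 ± 0.34 to 1.29 ± 0.21) and of Col6a1 to Col6a2 (3.59 ± 0.41 to 2.45 ± 0.04) were lower on CDAHFD, and that of Col1a1 to Col3a1 was higher (0.390 ± 0.068 to 0.883 ± 0.052). The 6 pairs without overlap each had p = 0.1 in a two-sided exact permutation test, the smallest value that 3 against 3 libraries allow (0.117 adjusted over the 7 pairs). The exception was Col8a1 to Col8a2, with 1.47, 2.15 and 1.98 against 1.84, 5.16 and 1.24 and an exact permutation p = 0.9. Ratios within a library are free of library scaling but depend on the gene lengths the authors used.

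**Figure D4:**
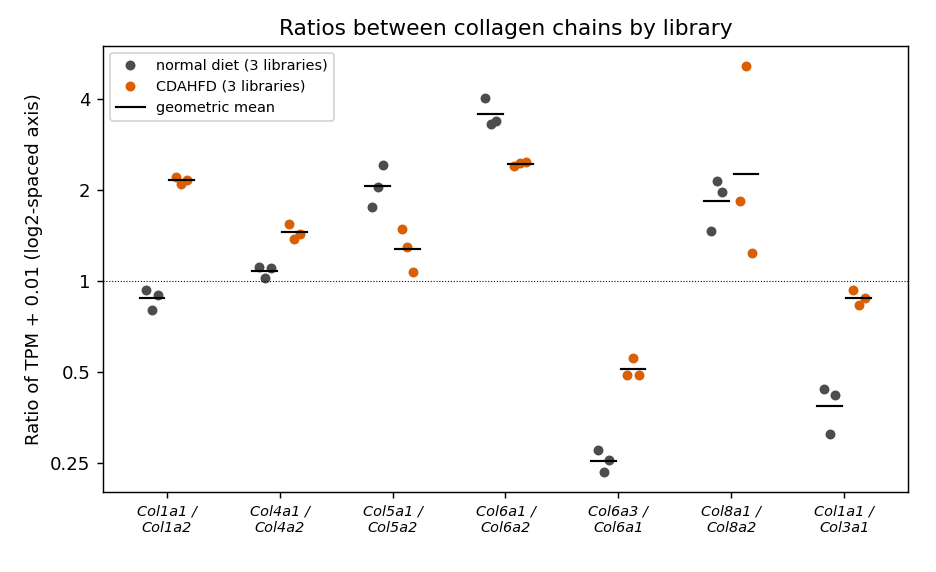
Ratio of TPM + 0.01 between 7 pairs of collagen chains (y axis, log2-spaced) in each of the 3 normal diet libraries (grey) and 3 CDAHFD libraries (orange), with bars at geometric means. The diets are apart in 6 pairs, with Col1a1 over Col1a2 moving from below 1 to 2.09 to 2.22, and overlap for Col8a1 over Col8a2.

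Several of the chains, partners in 1 trimer or not, are neighbours on a chromosome. With no protein-coding gene between them in the RefSeq GRCm38.p6 order lie Col4a1 and Col4a2 on chromosome 8, Col6a1 and Col6a2 on 10, Col3a1 and Col5a2 on 1, Col4a3 and Col4a4 on 1, Col4a5 and Col4a6 on X and Col6a5 and Col6a6 on 9. The first 3 of these pairs rose as pairs, Col4a3 and Col4a4 both missed the threshold, Col4a5 rose while Col4a6 was not tested, and Col6a5 and Col6a6 both rose. Col18a1 lies 2 protein-coding genes away from Col6a1 on chromosome 10, and the log2 fold changes of these neighbours were -0.24 and 2.51.

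The bases just upstream of a start are shown for a chain that rose (Col3a1) and for the abundant chain that did not pass (Col18a1), from RefSeq promoter windows of GRCm38.p6, with any base in an annotated exon left out. Col3a1 is at chr1:45311288-45311537 on the plus strand and Col18a1 at chr10:77166549-77166780 on the minus strand. Capitals mark matches to 3 motifs of general promoters, searched on either strand, which do not overlap each other in these windows. The CCAAT box was searched as CCAAT and, for the other strand, as ATTGG. The TATA box was searched as TATAAA, or TTTATA when reversed. The GC box was searched as GGGCGG, or CCGCCC when reversed.
Col3a1: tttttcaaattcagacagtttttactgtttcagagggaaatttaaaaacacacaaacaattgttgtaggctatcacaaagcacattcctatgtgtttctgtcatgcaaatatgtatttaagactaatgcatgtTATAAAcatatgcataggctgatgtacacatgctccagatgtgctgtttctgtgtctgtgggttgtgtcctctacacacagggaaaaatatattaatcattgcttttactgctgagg
Col18a1: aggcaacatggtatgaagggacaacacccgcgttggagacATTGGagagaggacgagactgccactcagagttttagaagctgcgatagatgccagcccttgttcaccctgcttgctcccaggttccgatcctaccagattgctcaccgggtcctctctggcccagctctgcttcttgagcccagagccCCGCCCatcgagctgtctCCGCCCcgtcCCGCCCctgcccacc
The Col3a1 window has 35.2% G and C and 1 TATAAA, and the shown window of Col18a1 60.8% G and C, 1 ATTGG and 3 CCGCCC. Col18a1 has another window, at chr10:77113706-77113955, without a match to any of the 3 motifs. RefSeq windows of 250 bases were found for 29 of the 35 members, and those without one include Col1a1, Col5a2, Col12a1 and Col14a1, which rose. GGGCGG occurred in 18 of these 29 genes, CCAAT in 10 and TATAAA in 4. Counted by window, they occurred in 19, 10 and 4 of 31 member windows, against 32.7%, 33.8% and 12.4% of all 32851 windows. Among the 14 genes of these that rose, 9 had GGGCGG, 5 CCAAT and 1 TATAAA. Of the 7 that did not pass, 4, 2 and 2 genes had them. The motifs thus occur on both sides, and a match in a window is a description and not a bound site. Some of these genes have several starts, and which start was used is not known from gene counts.

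The genes that fold, secrete, cross-link, bind and break down collagen were followed as a list of 51, of which 48 were tested. In all, 35 rose, 4 fell and 9 did not pass, against 28.5% and 23.5% of all genes tested, with a median log2 fold change of 1.40 (0.01 over all genes). Among the enzymes and chaperones of the endoplasmic reticulum, such as prolyl and lysyl hydroxylases, 13 of 17 rose and 1 fell. Of the 11 tested genes of propeptide removal and cross-linking 9 rose and 1 fell, of the 8 receptors 4 rose and 4 did not pass, and all 8 turnover genes rose. Of the 4 genes listed under secretion (Mia3, Mia2, Creb3l1 and Creb3l2) 1 rose, namely Creb3l1, a share close to that of all genes. Mia3 and Mia2 fell. The largest changes with a mean of at least 1 CPM were those of Timp1, an inhibitor of matrix proteases (log2 fold change 6.69 ± 0.40), Mmp13, a collagenase (5.24 ± 0.26), Lox, which starts the cross-links between chains (4.29 ± 0.36), and Mrc2, a receptor that takes up collagen fragments (3.67 ± 0.21). On normal diet Timp1 had 4, 1 and 0 reads, Mmp13 5, 4 and 7 and Lox 3, 9 and 3. These 3 genes passed the filter through CDAHFD alone, and the size and order of their changes rest on those few reads. Other genes of the list also passed it only with their CDAHFD libraries, such as Mmp8 (0, 0 and 6 reads on normal diet), Itga2 (5, 8 and 3), Ctsk and Plod2. For such genes a rise is partly set by the filter, so the counts above, also that of the turnover genes, describe the tested genes only. Timp1 was at 0 to 0.196 CPM on normal diet and at 8.51 to 9.51 CPM on CDAHFD.

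Lox was at 0.147, 0.441 and 0.150 CPM on normal diet and at 4.66, 4.18 and 5.96 CPM on CDAHFD, with no overlap, as was also the case for Mmp13 and Mrc2. Serpinh1, the chaperone HSP47 that binds the collagen helix, rose by 2.40 ± 0.18, a gene chosen after its values were seen. The most abundant genes of the list by CPM, which is not scaled by length, that did not pass were Itgb1, the shared beta chain of the collagen-binding integrins (-0.08, edgeR adjusted p = 0.548), and Bmp1, which cuts off the C-propeptide (-0.25, edgeR adjusted p = 0.0564). The 4 genes that fell, also chosen after their values were seen, were Mia3 (-0.67 ± 0.15) and Mia2 (-0.58 ± 0.16), which load collagen into transport vesicles, Pcolce2, an enhancer of propeptide removal (-1.0 ± 0.25), and Colgalt2, a collagen sugar transferase (-1.43 ± 0.56, edgeR adjusted p = 0.0487). Colgalt2 overlapped between diets, with 13, 34 and 10 reads against 3, 11 and 13. Its call was lost without normal diet replicate 2 (-0.73, edgeR adjusted p = 0.308) and without CDAHFD replicates 1 (0.136) or 2 (0.0715). Under scaling to total counts and in TPM, Pcolce2 was the 1 gene of the list that still fell.

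Marker lists of 9 cell types besides hepatocytes were read beside these changes, against the 28.5% of all genes tested that rose. Of 10 stellate cell markers 9 rose and Hhip fell, and their summed level was 191 to 219 CPM on normal diet and 346 to 398 CPM on CDAHFD. The 7 myofibroblast markers, which include Timp1 and Lox, summed to 20.4 to 23.8 CPM against 77.0 to 88.5 CPM, and all 5 tested rose. The 8 portal fibroblast markers, of which Cd34 is also in the list of endothelial markers outside the sinusoids, summed to 12.1 to 20.6 CPM against 79.7 to 113 CPM, with all 7 tested higher. Macrophage markers (6 genes, 5 higher, with Clec4f not passing) summed to 190 to 244 CPM against 946 to 1062 CPM, and most of the rise of this sum came from 1 gene. Cholangiocyte markers (6 genes, all 5 tested higher) summed to 4.51 to 8.45 CPM against 19.7 to 30.4 CPM. Smooth muscle markers (4 genes, 2 of 3 tested higher) summed to 7.4 to 10.8 CPM against 13.7 to 20.0 CPM. Endothelial markers outside the sinusoids (5 genes, 3 higher) summed to 147 to 158 CPM against 245 to 272 CPM, sinusoidal ones (7 genes, 2 higher, close to the share of all genes) to 391 to 432 CPM against 441 to 493 CPM. Mesothelial markers (5 genes, 1 of 2 tested higher) overlapped, at 0.700 to 3.88 CPM against 0.858 to 2.96 CPM. Some markers passed the filter through CDAHFD alone, such as Timp1, Lox, Cldn4 (5, 0 and 2 reads on normal diet) and Wt1 (2, 5 and 1), the mesothelial marker that rose. For such genes a rise is partly set by the filter, so these counts describe the tested markers only. The part of these cell types in the collagen changes was not tested.

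The libraries of a diet also differed together across chains. CDAHFD replicate 3 had the highest TMM-scaled level of its diet for 17 of the 18 chains that rose, and normal diet replicate 3 for 11 of 18. CDAHFD replicate 3 also had the highest summed level of its diet for 8 of the 10 marker lists and the lowest for hepatocyte markers, while CDAHFD replicate 1 had the highest for stellate cell markers. Without CDAHFD replicate 3, 18 collagen chains passed as higher, among them Col11a2 but not Col6a6, and the collagen sum was 2.03-fold that of normal diet.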

How the data were processed

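The authors deposited raw read counts per Ensembl gene, as whole numbers, and TPM per gene for 6 liver libraries. Per the labels' protocols, RNA was extracted with TRIzol and made into stranded mRNA libraries, and STAR 2.7.11a and GRCm39 are named per the submitters' processing notes. For the counting tool, the annotation, the strand setting and the lengths behind TPM, the entry is: not given in the sources used here. Columns beginning CD were read as CDAHFD and those beginning ND as normal diet, keeping the number in each title. Symbols were found for 51911 of 56847 gene IDs. Genes passing filterByExpr (minimum count 10, 14215 of 26131 counted) were scaled by TMM and fitted with edgeR 4.0.16 (R 4.3.3) by quasi-likelihood with diet as its term, and p-values were adjusted over all genes tested (Benjamini-Hochberg, threshold 0.05). CPM is relative to TMM-scaled totals, and the fit's biological coefficient of variation was 0.136. Counts within a diet differed by far more than sampling noise (chi-square per degree of freedom 17.5 to 39.7). Ratios used TPM + 0.01 and exact permutation tests (scipy 1.17.1).

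Proline was counted from codons of the GENCODE M21 coding sequences in place of the RefSeq proteins first planned, which were not used here. Full values are given for the 3 most abundant tested chains of each class, the largest change in each direction of each class and the chains of the pairs. From the maturation list the same rule named the 4 largest changes and the 2 most abundant genes not passing, of which only Lox has full values. Members, lists and this rule were chosen with earlier results of these data known. Alternatives were RLE and total-count scaling, scaling by hepatocyte markers, no filter, a stricter filter, DESeq2 1.42.0, limma 3.58.1 on log2 TPM, a replicate block and leaving out each library. The values of 1 marker gene are not reported here.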

Additional observations from a re-analysis of the deposited data

How the results depend on the processing

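Scaling sets how many genes fall on each side. Over all genes, 4057 rose and 3347 fell. With total counts 6258 rose and 1147 fell, with scaling by hepatocyte markers 7486 and 639, with limma on log2(TPM + 1) 6449 and 897 and on log2(TPM + 0.1) 6433 and 897, and the median log2 fold change of all genes was then 0.34, 0.50, 0.29 and 0.37. Collagen chains that rose numbered 17 (DESeq2) to 21 (no filter) under all settings and 17 to 19 when 1 library was left out. Col27a1 fell under all of them. Chains that fell numbered 2 with no filter (with Col25a1), 2 with DESeq2 (with Col18a1) and 1 to 3 when 1 library was left out, where Col18a1 was added without normal diet replicate 2, Col5a3 and Col25a1 without normal diet replicate 3, and Col25a1 without CDAHFD replicate 2. Genes of the maturation list that fell numbered 4, with 5 under RLE scaling and under DESeq2, where Bmp1 was added, and 3 under the stricter filter. They numbered 3 to 6 when 1 library was left out, with Fkbp14 and Itga10 added without normal diet replicate 3. With total counts 1 fell, with hepatocyte markers 0 (edgeR, 0 also at an unadjusted p under 0.05), with limma 1 on log2(TPM + 1) and 1 on log2(TPM + 0.1). The log2 fold changes of Ppib (0.41 with hepatocyte markers, 0.30 and 0.30 with limma on TPM), Creb3l2 (0.49) and Itgb1 (0.41, both with hepatocyte markers) then passed as higher with edgeR or limma after a negative value, each moved by about as much as the median of all genes. To look for pairing, the mean log CPM of each gene within a diet was subtracted from its libraries. The remaining deviations of same-numbered libraries had correlations of -0.05, 0.07 and 0.12, and only number 3 correlated best with its own number. Such a check on 3 libraries per diet cannot decide whether the numbers pair the libraries. With a replicate block 19 collagen chains rose and 1 fell, against 4046 and 3311 of all genes. Reads limit the chains under about 30 reads per library, such as Col11a2, whose call passed under 8 of the alternatives.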

Other observations

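Proline codons made up 5.22% ± 0.02 (SD, n = 3) of all codons in the transcript pool of genes other than collagens on normal diet and 5.35% ± 0.02 on CDAHFD, with no overlap between the libraries of the diets. With the collagen chains included, the values were 5.24% ± 0.02 and 5.39% ± 0.02. Of the 21468 genes with a coding sequence, 256 had a proline share of 15% or more, the range in which most fibrillar and type IV chains lie.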
